A study of Macaca fascicularis with 16 samples.

Results

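In mammary tissue of cynomolgus macaques, 10 textbook targets of the glucocorticoid receptor were followed under 3 hormone treatments and no treatment. The targets were TSC22D3, ZBTB16, PER1, KLF15, SGK1, CEBPD, GLUL, PDK4, MAOA and DUSP1, and every probe set that the array annotation assigns to 1 of these symbols alone was taken. This gave 19 of 52865 probe sets, for 10 of the 14133 genes that have such a probe set. Of these, 16 passed the filter on dim probe sets and entered the tests, with at least 1 probe set for each of the 10 genes.

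All 16 animals were ovariectomized postmenopausal females, and 1 array was hybridized with total RNA from the mammary tissue of each. Tibolone was given to 4 animals at 0.2 mg/kg. Another 4 received conjugated equine estrogens (CEE) at 0.042 mg/kg together with medroxyprogesterone acetate (MPA) at 0.167 mg/kg, a further 4 received CEE alone at 0.042 mg/kg, and 4 control animals were untreated. The sources used here give neither ages nor how long treatment lasted. The tissue was whole mammary tissue, so fewer cells of a type and less RNA per cell cannot be told apart.

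The glucocorticoid receptor, encoded by NR3C1, is a hormone-activated transcription factor. It waits in the cytoplasm in a complex with HSP90 and immunophilins, and on binding cortisol it enters the nucleus and raises the transcription of genes near its binding sites. The targets chosen here are among the genes that respond in many tissues. In the mammary gland the receptor acts with prolactin on the differentiation of the milk-producing epithelium. MPA is a synthetic progestin that binds the progesterone receptor and can also bind the glucocorticoid receptor, so CEE+MPA against CEE, which differ by MPA alone, is the comparison that addresses a response of these genes to MPA. Tibolone is a synthetic steroid whose metabolites act on several steroid hormone receptors. CEE is a mixture of estrogens.

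Signals are linear intensities, scaled by the authors to a common mean, and differences are given on the scale of log2(signal + 16) with standard errors from limma. A change was called at a Benjamini-Hochberg adjusted p under 0.05 over all 28716 tested probe sets. Unless another is named, values are those of the probe set with the highest mean of its gene. Levels of different genes are not compared, since probe sets differ in their response. The arrays of each group enter 3 comparisons, so the comparisons share samples and are not independent of each other.

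Some arrays differed in ways that the treatment labels do not explain. The share of probe sets above the filter level lay between 48.6% and 51.8%. Luminal epithelial markers were present on every array, with a summed signal of 10 markers of 26682 to 45288 on tibolone arrays, 34834 to 41756 on CEE+MPA arrays, 35071 to 40110.2 on CEE arrays and 30379.5 to 34724 on control arrays. Skeletal muscle markers, which do not belong to the gland, were high on tibolone replicates 2 and 3, CEE+MPA replicate 1 and control replicate 1, with list means of 2.54, 1.66, 1.42 and 2.64 above their average on the log2 scale. The arrays were divided at 7.5 on the log2 signal of the spike-in control dap. The low set of 6 holds CEE+MPA replicates 1 and 4, CEE replicates 1 and 2 and control replicates 3 and 4. All the others form the high set of 10. The dap values ran from 7.13 to 7.44 in the low set and from 7.70 to 8.52 in the high set. A gap as wide lay inside the high set, between 8.06 and 8.32, so the cut is a choice and not a clear break. The labels do not name these sets, and all 4 tibolone arrays were in the high set.

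None of the 16 probe sets of the targets was called when CEE+MPA was compared with CEE. In CEE+MPA minus CEE the lowest adjusted p of a member was 0.660, and 0 of 16 had an unadjusted p under 0.05, where 7.72% of all tested probe sets did. The background of this comparison was itself low, with 0.0209% of the tested probe sets called. Differences were negative for 12 member probe sets and positive for 4. The median difference over the 10 genes was -0.24, against 0.004 over all 10455 tested genes. The intervals below show how large a response in either direction the data still allow.

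**Figure D1:**
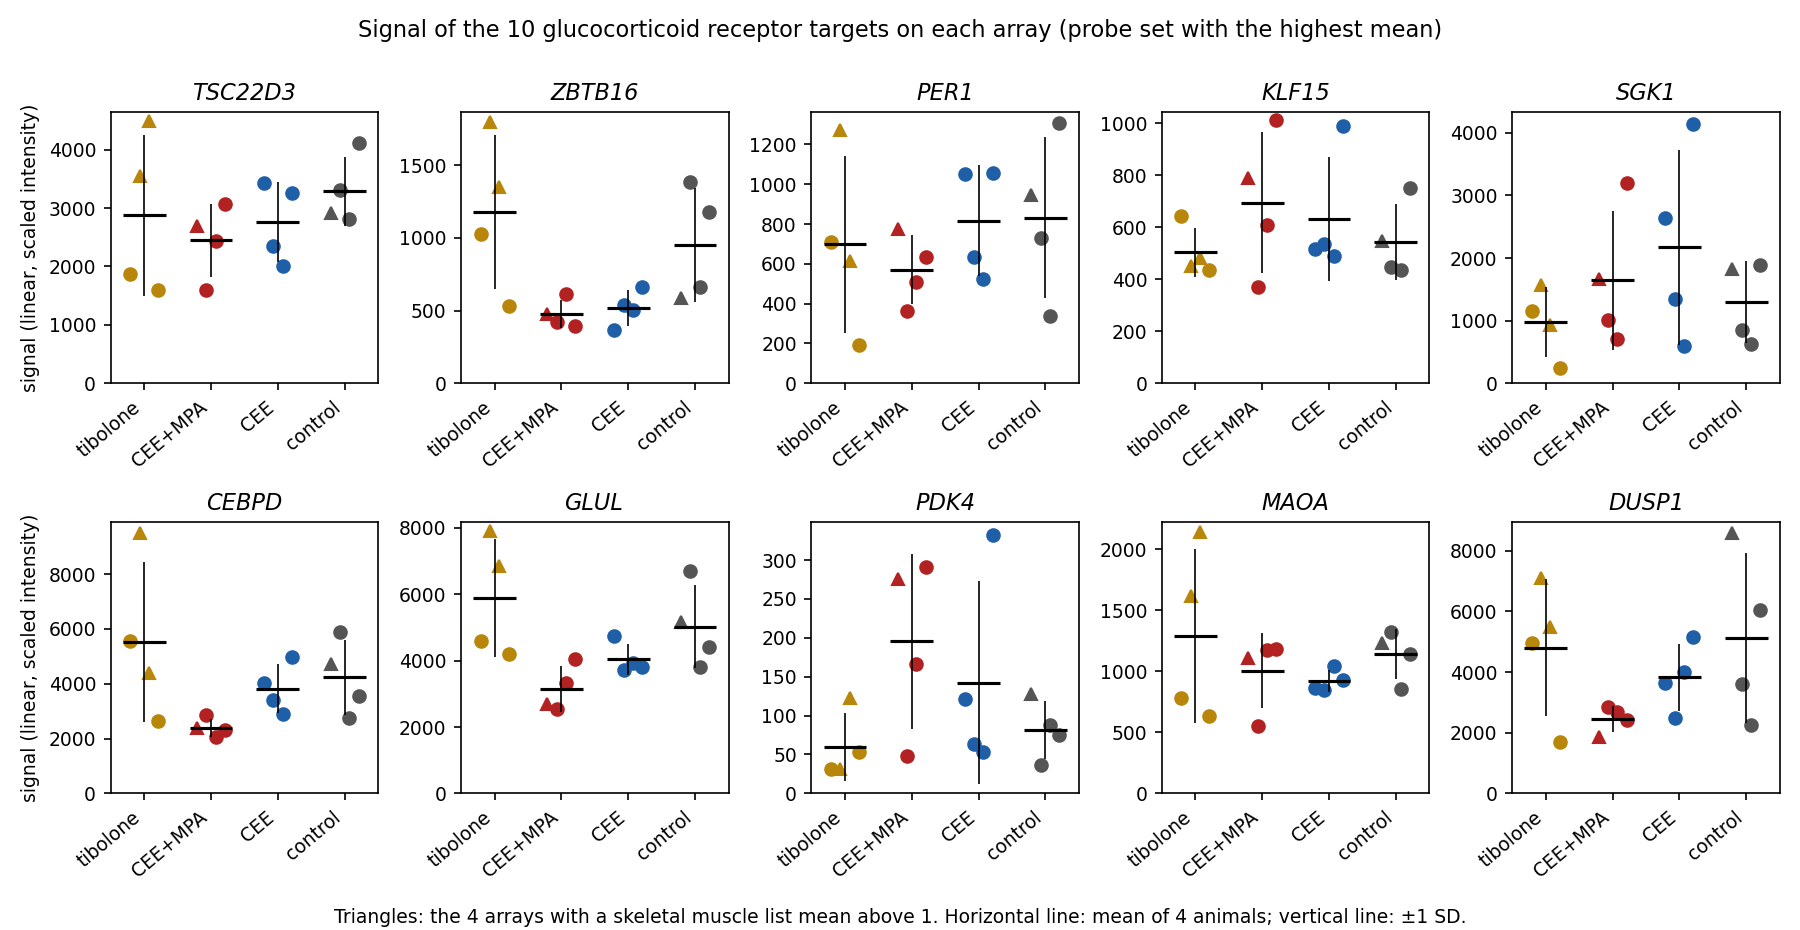
Signal (linear, scaled intensity) of the 10 targets on each of the 16 arrays, by treatment. Points are animals, triangles mark the 4 arrays with high skeletal muscle markers, horizontal lines are means and vertical lines 1 SD (n = 4). CEE+MPA has the lowest mean of the 4 groups for 6 of the 10 genes and the highest for 2, KLF15 and PDK4.

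Of the targets, 5 encode regulators of transcription. TSC22D3, also known as GILZ, mediates part of the anti-inflammatory action of glucocorticoids, and its induction is a common readout of receptor activity. Its signals were 1872, 3548, 4497 and 1594 in tibolone animals, 2694, 1592, 2436 and 3073 in CEE+MPA animals, 3431, 2346, 2014 and 3259.8 in CEE animals and 2912, 3318, 2818 and 4113 in control animals. All groups overlapped, and the highest value, like 2 of the 3 lowest, came from a tibolone animal. TSC22D3 averaged 2449 ± 628 under CEE+MPA and 2763 ± 690.03 under CEE (SD, n = 4 each). The difference was -0.18 ± 0.30, with an adjusted p of 0.919 in limma and a 95% interval of -0.82 to 0.46.

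ZBTB16, or PLZF, is a zinc finger repressor that glucocorticoids and progestins both induce in human cells. Tibolone animals had ZBTB16 signals of 1030.3, 1796, 1355 and 533, CEE+MPA animals 477, 421, 613 and 395, CEE animals 364, 539.9, 505 and 659 and control animals 585, 1388, 659 and 1182. The highest values were on 3 tibolone arrays and 2 control arrays, while CEE+MPA and CEE animals covered almost the same range. CEE+MPA and CEE differed by -0.10 ± 0.34 (-0.82 to 0.61, adjusted p = 0.967 in limma). The interval leaves out a rise of 1 log2 unit under MPA.

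KLF15 is a zinc finger factor that controls amino acid and lipid use in muscle, liver and fat. On CEE+MPA arrays KLF15 had 788, 368, 609 and 1010.2, against 516, 537, 489.5 and 989 on CEE arrays, and on tibolone arrays 642, 452, 481 and 435, against 547, 445, 436 and 750.3 on control arrays. CEE+MPA animals included both the lowest and the highest of the 16 values. CEE+MPA minus CEE was 0.10 ± 0.29, with an interval of -0.50 to 0.71. A second KLF15 probe set lay at 5.62 to 45.7 on the 16 arrays, below the filter level of 60.2 on all of them, and was not tested.

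CEBPD is a basic leucine zipper factor of acute phase responses and of the early steps of fat cell differentiation. Its signals were 5566, 9517, 4403 and 2647 in tibolone animals, 2373, 2857, 2066 and 2301 in CEE+MPA animals, 4020.2, 3397, 2892 and 4979 in CEE animals and 4736, 5893, 2754 and 3559 in control animals. Every CEE+MPA animal was below every CEE animal. CEBPD was 1 of the 16 member probe sets without overlap in this comparison, where 5.07% of all tested probe sets had none. It averaged 2399 ± 332 under CEE+MPA and 3822 ± 899 under CEE (SD, n = 4 each). That difference of -0.65 ± 0.32 was not called, at an adjusted p of 0.66 in limma, and its interval was -1.32 to 0.02.

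PER1 is a repressor of the circadian clock whose promoter responds directly to glucocorticoids. PER1 signals were 711, 1274, 612 and 193 under tibolone, 775, 365, 509.8 and 635 under CEE+MPA, 1051, 636, 522 and 1059 under CEE and 948, 732, 339 and 1307 in controls. The spread within groups was wide, up to 6.61-fold between the highest and the lowest tibolone animal. CEE+MPA minus CEE was -0.49 ± 0.48, with an interval of -1.51 to 0.53. The time of day of sampling is not given in the sources used here.

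Signalling proteins are represented by SGK1, a kinase that keeps epithelial sodium channels at the membrane, and DUSP1, a phosphatase that switches off MAP kinases. SGK1 signals were 1157, 1576, 933 and 245 in tibolone animals, 1661, 1009.5, 698 and 3203 in CEE+MPA animals, 2633, 1339, 588 and 4139 in CEE animals and 1822, 846, 628 and 1895 in control animals. The animals of each group differed by between 3.02-fold and 7.04-fold. The second SGK1 probe set followed the first over the 16 arrays (r = 0.95). CEE+MPA minus CEE was -0.30 ± 0.65 for the first and -0.14 ± 0.59 for the second, and the interval of the first, -1.67 to 1.07, covers more than 2-fold in both directions.

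DUSP1 had signals of 4947, 7092, 5488 and 1702 on tibolone arrays, 1875, 2856, 2676 and 2430.3 on CEE+MPA arrays, 3650.3, 2483, 4004 and 5156 on CEE arrays and 8591, 3603, 2248 and 6054 on control arrays. CEE+MPA animals lay close together at the lower end of the range. DUSP1 averaged 2459 ± 427 under CEE+MPA and 3823 ± 1101 under CEE (SD, n = 4 each). The difference was -0.60 ± 0.42 (adjusted p = 0.769 in limma), and the dimmer DUSP1 probe set gave -0.18 ± 0.31.

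Metabolic enzymes form the last group. GLUL, glutamine synthetase, joins ammonia to glutamate and is induced by glucocorticoids in muscle and fat. GLUL signals were 4599, 7897, 6846 and 4192 in tibolone animals, 2696, 2544, 3315 and 4061 in CEE+MPA animals, 4731, 3722, 3918 and 3799.96 in CEE animals and 5179, 6689, 3804 and 4399 in control animals. Of the 4 CEE+MPA animals, 3 were below all other animals of the study. CEE+MPA minus CEE was -0.37 ± 0.22 with an interval of -0.85 to 0.10, which leaves out a rise of 1 log2 unit. A second GLUL probe set with the same gene ID followed the first (r = 0.87). Another carries a different gene ID under the symbol GLUL, lay at 36.2 to 85.4 and did not follow the first (r = 0.02), and the remaining 2 stayed below 60.2 on all arrays.

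PDK4, a kinase that shuts off pyruvate dehydrogenase and so spares glucose during fasting, was measured near the filter level. PDK4 signals were 31.7, 31.5, 123 and 52.8 under tibolone, 276, 48.0, 167 and 291 under CEE+MPA, 121, 62.9, 53.7 and 332 under CEE and 128, 36.2, 88.2 and 74.5 in controls. Of the 4 CEE+MPA animals 3 were above every tibolone and control animal, and so was 1 CEE animal. The difference between CEE+MPA and CEE was 0.50 ± 0.55 (adjusted p = 0.862 in limma, interval -0.67 to 1.67).

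MAOA, a mitochondrial enzyme that oxidizes serotonin and noradrenaline, had signals of 779.9, 1614, 2141 and 631 in tibolone animals, 1109, 552, 1174 and 1187 in CEE+MPA animals, 861, 845, 1046 and 926 in CEE animals and 1235, 1325, 852 and 1143 in control animals. CEE animals were the most uniform, and tibolone animals spread the most. The 3 MAOA probe sets moved together over the arrays (r of 0.89 to 0.91), and their differences between CEE+MPA and CEE were 0.07 ± 0.33, 0.17 ± 0.40 and -0.15 ± 0.28.

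**Figure D2:**
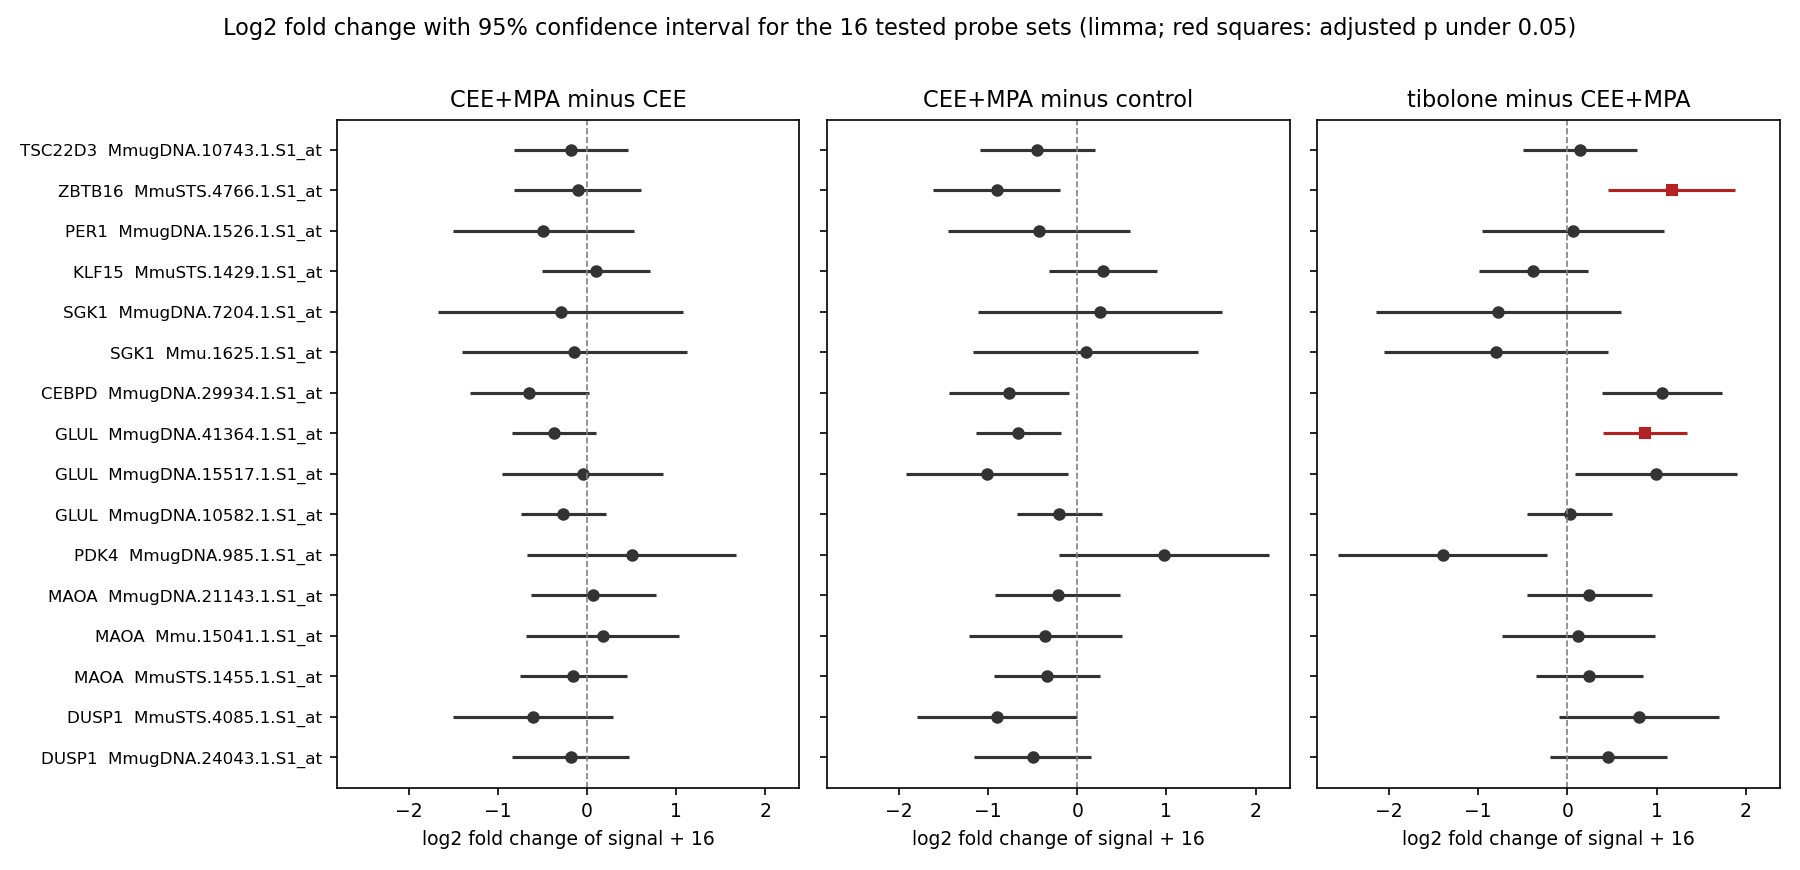
Log2 fold change of signal + 16 (horizontal axis) with its 95% confidence interval for the 16 tested probe sets in 3 comparisons, from limma with 4 animals a group. All intervals of CEE+MPA minus CEE include 0, and the 2 red squares in tibolone minus CEE+MPA mark ZBTB16 and 1 GLUL probe set, at 1.17 and 0.87.

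The signs of CEE+MPA minus CEE differed between the spike-in sets. Within the high set, with 2 arrays a group, all 16 member probe sets were lower under CEE+MPA. By the mean over the 10 genes, each centred on its own average, that set holds the lowest CEE+MPA array, replicate 2 (-0.63). It also holds the highest array of all, CEE replicate 4 (0.57). Spike-in set and single animals cannot be told apart here. The share of all tested probe sets lower within a set was not computed. Within the low set, also 2 against 2, 10 were higher and 6 lower, and none was called in either set. Against CEE, the smooth muscle markers had a median difference of -0.77 under CEE+MPA, with 0 of 7 called. The basal and myoepithelial markers were at -0.95 and the skeletal muscle markers at 1.03, with 0 of 4 and 0 of 11 called. Their part in the values of the members was not tested.

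Between CEE+MPA and untreated controls none of the 16 probe sets was called, while 6.33% of all tested probe sets were called, 561 higher (1.95%) and 1258 lower (4.38%). With arrays centred on their medians that split was 889 higher and 902 lower. The lowest adjusted p of a member was 0.0841, for GLUL at -0.66 ± 0.22. There were 4 member probe sets that had an unadjusted p under 0.05, all lower under CEE+MPA, where 24% of all tested probe sets had one. These were ZBTB16, CEBPD and 2 of GLUL. The median difference over the 10 genes was -0.44, against 0.01 over all tested genes.

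ZBTB16 averaged 477 ± 97.2 under CEE+MPA and 953 ± 393 in controls (SD, n = 4 each), a difference of -0.90 ± 0.34 with an adjusted p of 0.114 in limma. CEBPD differed by -0.77 ± 0.32 (adjusted p = 0.151). The second GLUL probe set was the only 1 of the 16 without overlap, as was the case for 16.1% of all tested probe sets. It had 952, 464, 957 and 1197 under CEE+MPA and 1770.1, 2594, 1529 and 1257 in controls, a difference of -1.02 ± 0.43 (adjusted p = 0.16 in limma). PDK4 went the other way, at 0.97 ± 0.55 (adjusted p = 0.302). Within the low set the members were divided evenly in this comparison, 8 higher and 8 lower, and within the high set 1 was higher and 15 lower. Each set has 2 arrays a group here, and the high set again holds CEE+MPA replicate 2. Several marker lists moved in this comparison. Their medians were -1.24 for smooth muscle (6 of 7 called), -1.14 for basal and myoepithelial cells (2 of 4), -0.52 for adipocytes (2 of 9), -0.55 for endothelium (2 of 7), -0.42 for fibroblasts (3 of 7) and -0.71 for myeloid cells (1 of 9). Luminal epithelial markers had a median of -0.12 with 2 of 10 called. The part of these cell types in the values of the targets was not tested.

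Between CEE alone and controls none of the 16 was called, where 0.0731% of all tested probe sets were called, with 0.0313% called lower. For 2 members the unadjusted p was under 0.05, against a background of 12.4%, and both were lower under CEE. All 16 overlapped between CEE and control animals, while 8.95% of all tested probe sets did not. ZBTB16 had a mean of 517 ± 121 under CEE and 953 ± 393 in controls (SD, n = 4 each), a difference of -0.80 ± 0.34 with an adjusted p of 0.355 in limma. The other was the second GLUL probe set, at -0.96 ± 0.43 (adjusted p = 0.375). In the same comparison the adipocyte markers had a median of -0.80 and the skeletal muscle markers -1.23, with 0 of 9 and 0 of 11 called, and their part was not tested.

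Between tibolone and controls none was called either, with a background of 0.0244%. No member had an unadjusted p under 0.05, as 5.4% of all tested probe sets did, and the lowest adjusted p was 0.917. None was without overlap, against 3.43% of all tested probe sets. Member differences in this comparison ran between -0.71, for the dimmer SGK1 probe set, and 0.29, for CEBPD. In tibolone minus CEE there was likewise no call, with a background of 0.00696%, of which 0.00348% were higher and 0.00348% lower. None was without overlap, against 5.43%. There were 3 with an unadjusted p under 0.05, all higher under tibolone, against a background of 11.9%. ZBTB16 was 1.06 ± 0.34 with an adjusted p of 0.281 in limma, and the 2 brighter GLUL probe sets were 0.50 ± 0.22 and 0.95 ± 0.43. Without tibolone replicate 4 the ZBTB16 difference was 1.40 and was called, at an adjusted p of 0.0440. In that refit 238 of all 28716 tested probe sets were called, against 2 with all arrays. Adipocyte markers had a median of 0.71 and skeletal muscle markers 1.78 in tibolone minus CEE, with 0 of 9 and 0 of 11 called, and their part was not tested.

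Of the 6 comparisons, only tibolone against CEE+MPA had calls among the targets. ZBTB16 and the brightest GLUL probe set were higher under tibolone, which is 2 of 16, where 6.34% of all tested probe sets were called, 3.78% higher and 2.56% lower. GLUL averaged 5884 ± 1779 under tibolone and 3154 ± 691 under CEE+MPA (SD, n = 4 each), a difference of 0.87 ± 0.22 or 1.83-fold, with an adjusted p of 0.0353 in limma. Every tibolone animal was above every CEE+MPA animal for this probe set, as was so for 13.1% of all tested probe sets in 1 direction or the other. ZBTB16 averaged 1178 ± 533 under tibolone and 477 ± 97.2 under CEE+MPA. Its difference of 1.17 ± 0.34 or 2.25-fold had an adjusted p of 0.0499, at the edge of the threshold. Tibolone replicate 4, at 533, was below CEE+MPA replicate 3, at 613.

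A further 3 member probe sets had an unadjusted p under 0.05 without being called, and 25.1% of all tested probe sets had one. CEBPD was 1.06 ± 0.32 (adjusted p = 0.0569 in limma), the second GLUL probe set was higher under tibolone with an adjusted p of 0.16, and PDK4 was -1.40 ± 0.55 (adjusted p = 0.132). PDK4 and GLUL, both metabolic targets of the receptor, therefore had opposite signs. The median over the 10 genes was 0.19, against 0.01 over all tested genes. TSC22D3 and PER1 were at 0.14 ± 0.30 and 0.06 ± 0.48 in this comparison.

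Both calls were lost in most refits with 1 array fewer. Leaving out any 1 array of the 2 groups except tibolone replicate 4 ended the ZBTB16 call, at 0.93 to 1.29 with adjusted p of 0.0738 to 0.153. Leaving out CEE+MPA replicate 1, 2 or 3 or tibolone replicate 2 or 3 ended the GLUL call, at 0.71 to 0.90 with adjusted p of 0.0690 to 0.113. Without CEE+MPA replicate 3 both differences were larger than with all arrays, at 1.29 for ZBTB16 and 0.90 for GLUL. Calls over all probe sets fell to 413 in that refit. A lost call with 1 array fewer therefore does not show by itself that a difference rests on that array. Without tibolone replicate 4, CEBPD (1.36, adjusted p = 0.00990), the second GLUL probe set (1.35, adjusted p = 0.0445) and DUSP1 (1.24, adjusted p = 0.0389) were also called. That refit called 3333 of all 28716 tested probe sets, against 1820 with all arrays.

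The 2 tibolone arrays with high skeletal muscle markers had ZBTB16 at 1796 and 1355 and GLUL at 7897 and 6846, while the other 2 tibolone arrays had ZBTB16 at 1030.3 and 533 and GLUL at 4599 and 4192. Without the 4 arrays with high muscle markers the difference was 0.65 for ZBTB16 (adjusted p = 0.581) and 0.43 for GLUL (adjusted p = 0.603), and no probe set of any gene was called. That fit kept 2 tibolone arrays, replicate 4 among them, and 3 CEE+MPA arrays. The 2 tibolone arrays left out were also the group's highest for adipocyte markers, with list means of 0.75 and 1.13, against 0.01 and -0.97. Muscle, fat and single animals cannot be told apart here. With the spike-in set as a block the differences were 1.07 for ZBTB16 (adjusted p = 0.115) and 0.83 for GLUL (adjusted p = 0.0762). Within the high set, with 4 tibolone and 2 CEE+MPA arrays, they were 1.06 (adjusted p = 0.195) and 0.96 (adjusted p = 0.0760). Centring each array on its median moved the median of all genes by -0.11 in this comparison. It put ZBTB16 at 1.06 (adjusted p = 0.0658) and GLUL at 0.76 (adjusted p = 0.0529), and changed the split of all calls to 589 higher and 1517 lower, from 1086 higher and 734 lower with the deposited scaling.

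Markers of several cell types moved in the same comparison. Summed adipocyte marker signal, over 9 of 12 listed markers, was 15287 to 43321 under tibolone and 18762 to 34226 under CEE+MPA, with a median difference of 0.78 and 2 of 9 called. Skeletal muscle markers, 11 of 14 tested, summed to 898 to 12991 under tibolone and 698 to 5551 under CEE+MPA, with a median difference of 0.72 and 0 of 11 called. Smooth muscle markers had a median difference of 1.06 with 5 of 7 called, and basal and myoepithelial markers 1.16 with 2 of 4 called. Fibroblast markers were at 0.40 (2 of 7), endothelial markers at 0.39 (1 of 7) and luminal epithelial markers at 0.23 (1 of 10). The part of these cell types in the ZBTB16 and GLUL values was not tested beyond the fits with muscle and adipocyte covariates. With the muscle covariate the difference was 1.11 for ZBTB16 (adjusted p = 0.0878) and 0.80 for GLUL (adjusted p = 0.0636), both within 1 standard error of the values without it. With the adipocyte covariate GLUL was called, and ZBTB16, at 1.04, was not.

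**Figure D3:**
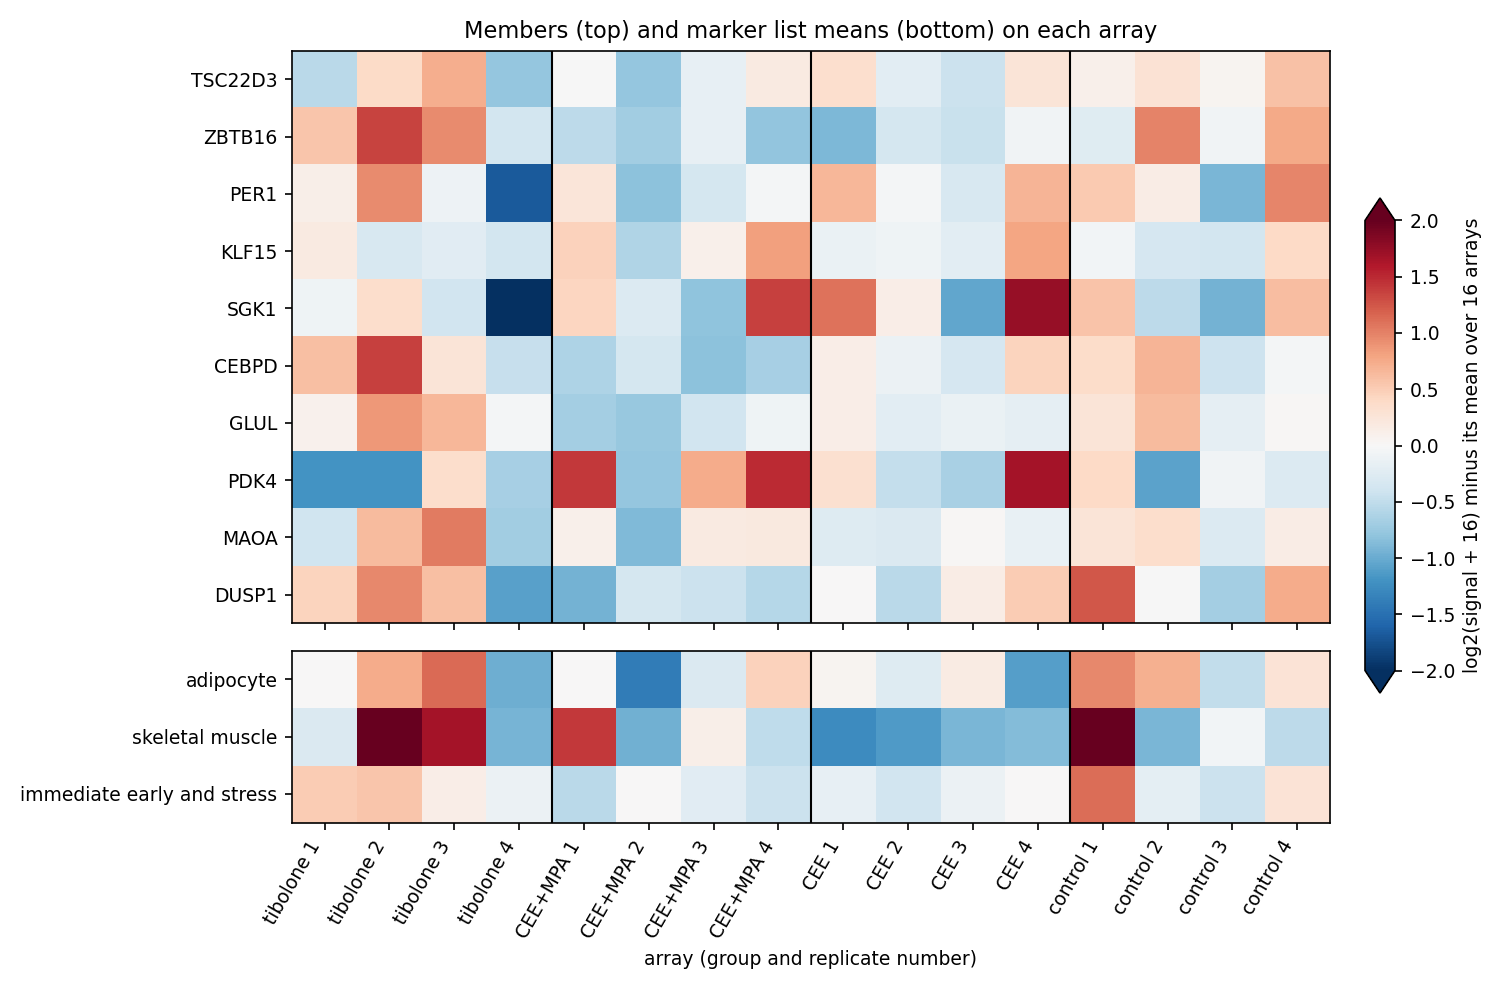
Each of the 10 targets (top) and 3 marker list means (bottom) on each array, as log2(signal + 16) minus the mean over 16 arrays, with red above and blue below. Tibolone replicate 4 and CEE+MPA replicate 2 are below the gene's own mean for all 10 targets, and both are low for the adipocyte markers (-0.97 and -1.40). CEE replicate 4 is as low for the adipocyte markers (-1.11) but has the highest mean over the targets (0.57).

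Variation between animals of a group was large beside the differences between groups. The mean over the 10 genes, each centred on its own average, was lowest on tibolone replicate 4 (-0.84) and CEE+MPA replicate 2 (-0.63), and 0 of the 10 genes were above their own average on either array. It was highest on CEE replicate 4 (0.57) and tibolone replicate 2 (0.54). By group it ran between -0.84 and 0.54 under tibolone, -0.63 and 0.19 under CEE+MPA, -0.34 and 0.57 under CEE, and -0.39 and 0.39 in controls. All 4 ranges overlap.

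To see which targets varied together, deviations from the group means were correlated over the 16 arrays for all 45 pairs of the 10 genes. The correlation was positive for 43 pairs and negative for 2. How often pairs of other genes are positive on these arrays was not computed, so it is not known whether these counts are particular to the targets. One pair passed adjustment over the 45, PER1 with SGK1 (Pearson's r = 0.84, adjusted p = 0.00746, and Spearman's rho = 0.84, adjusted p = 0.0336, exact permutation tests within groups, two-sided). Without tibolone replicate 4 and control replicate 3, the arrays farthest from the median of PER1, r was 0.78. It was 0.80 over the 6 arrays of the low spike-in set and 0.86 over the 10 arrays of the high set. These values used deviations from the mean of each group within a set. The low set has 2 arrays of each of its groups, so r there rests on 1 difference a group and is no replication. Within treatments, animals with a higher PER1 signal tended to have a higher SGK1 signal.

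The 10 targets were also set against the adipocyte list and the list of immediate early and stress genes, which are induced fast in stressed tissue, in 20 relations of the same kind. The adipocyte list includes PCK1, which is also among the further receptor targets below, so it is not free of receptor targets. DUSP1 followed the immediate early list (r = 0.85, adjusted p = 0.00102, and rho = 0.87, adjusted p = 0.00211, exact permutation tests). Its r was 0.83 without the 2 arrays farthest from the median, 0.99 in the low set and 0.79 in the high set. MAOA and GLUL followed the adipocyte list, with r of 0.85 (adjusted p = 0.00838) and 0.77 (adjusted p = 0.0315) and rho of 0.83 (adjusted p = 0.0294) and 0.82 (adjusted p = 0.0367) in the same tests. Without the 2 farthest arrays r was 0.71 for MAOA and 0.81 for GLUL. It was 0.92 and 0.80 in the low set and 0.88 and 0.75 in the high set. All low-set values again rest on 1 difference a group.

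By similarity over the 16 arrays, the 2 nearest of 10454 other genes were found for each target, as a description. CEBPD was nearest to SNAI1 (r = 0.96) and ATP2A2 (r = 0.93), ZBTB16 to ST3GAL2 (r = 0.92) and SPHKAP (r = 0.91), and GLUL to CARD19 and ELAPOR2 (r = 0.92 for both). MAOA was nearest to SIK2 (r = 0.90) and to PPARG (r = 0.86), the master regulator of fat cells. DUSP1 was nearest to PLK3 and CCN1 (r = 0.89 for both). PER1 was nearest to TP53INP2 (r = 0.85) and SIK1 (r = 0.83), and SGK1 to CPT1A (r = 0.85) and GADD45G (r = 0.82). PDK4 was nearest to PAIP2 and FERMT2 (r = 0.87 for both), TSC22D3 to DDIT3 (r = 0.85) and VPS9D1 (r = 0.82), and KLF15 to APOBR (r = 0.78) and KLF11 (r = 0.76). These correlations include differences between groups, tissue composition and array sets.

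Related genes in 5 lists put the targets in context. Of 36 further targets of the glucocorticoid receptor 25 were tested, and none was called in CEE+MPA minus CEE. Their median in that comparison was -0.27, with 20 negative and 5 positive, beside -0.24 for the 10 targets and 0.004 for all genes. Against controls, 2 of the 25 were lower under CEE+MPA, where 4.95% of all tested genes were called lower. CRISPLD2, a secreted protein that glucocorticoids induce in human airway muscle, averaged 689 ± 56.1 under CEE+MPA and 1209 ± 84.3 in controls (SD, n = 4 each), a difference of -0.80 ± 0.19 with an adjusted p of 0.0267 in limma. TFPI, an inhibitor of tissue factor coagulation, averaged 1151 ± 135 under CEE+MPA and 2407 ± 250.02 in controls, a difference of -1.06 ± 0.30 (adjusted p = 0.0492). CRISPLD2 was also higher under tibolone than under CEE+MPA, by 0.88 ± 0.19 (adjusted p = 0.0221), the only 1 of the 25 called there, a share close to the 3.98% of all tested genes called higher.

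FKBP5, a widely used response gene of the receptor, was too dim for the test. Its signals were 62.3, 113, 59.0 and 24.0 under tibolone, 35.6, 43.1, 38.0 and 37.9 under CEE+MPA, 34.9, 42.4, 33.3 and 33.7 under CEE and 42.2, 66.5, 7.80 and 52.8 in controls. It passed 60.2 on 3 arrays, of which tibolone replicate 2 was highest. CEE+MPA animals stayed within 35.6 to 43.1, inside the range of the controls.

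Among receptors and their partners, 14 of 21 listed genes were tested. NR3C1, the glucocorticoid receptor itself, averaged 739 ± 169.8 under CEE+MPA and 663 ± 156 under CEE (SD, n = 4 each), a difference of 0.15 ± 0.22 with an adjusted p of 0.899 in limma. Its signals under tibolone were 469, 412, 383 and 542, against 687, 521, 879 and 868 under CEE+MPA, a difference of -0.67 ± 0.22 that was not called (adjusted p = 0.071). The other 2 NR3C1 probe sets did not share it, at -0.12 ± 0.21 and 0.25 ± 0.32. FKBP4, an immunophilin of the receptor complex, had 2181, 1963, 1958 and 2056 under CEE+MPA and 971, 1006, 1431 and 1189 in controls. It rose by 0.83 ± 0.15 (adjusted p = 0.00854), as 1 of 14, where 2.74% of all tested genes were called higher. Under CEE alone FKBP4 was at 1807, 1726, 1633 and 1285, with 3 of 4 animals above every control. FKBP4 was lower under tibolone than under CEE+MPA, with a difference of -0.67 ± 0.15 (adjusted p = 0.0243). That was 1 of 14, where 3.37% of all tested genes were called lower.

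HSD11B1, the enzyme that regenerates active cortisol inside cells, had signals of 40.9, 42.3, 25.8 and 38.2 under CEE+MPA and 55.2, 104, 80.0 and 117 under CEE. All CEE+MPA animals were below all CEE animals, where 5.07% of all tested probe sets had no overlap in this comparison. HSD11B1 was above 60.2 on 7 arrays, none of them CEE+MPA, so it passed the filter only through the other groups. The difference of -0.97 ± 0.23 was not called (adjusted p = 0.268 in limma), and all values are close to the filter level. PGR, the progesterone receptor, had 11.7, 27.5, 8.75 and 22.6 under CEE+MPA and 152, 98.8, 66.9 and 36.6 under CEE, a difference of -1.55 ± 0.48 (adjusted p = 0.438). Control animals had PGR at 15.6, 20.3, 13.7 and 21.3, near the CEE+MPA values, with CEE+MPA minus control at -0.04 ± 0.48 (adjusted p = 0.976 in limma). PGR was above 60.2 on 3 CEE arrays and 1 tibolone array only, so it was tested through the group where it was high, and all CEE+MPA values are below the filter level. NR3C2 and HSD11B2 were not analysed here.

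The progesterone receptor list was read beside these, since MPA is first a progestin. None of its 9 tested genes was called in CEE+MPA minus CEE, where their median was 0.15. Against controls STAT5A, the transcription factor of prolactin signalling, rose under CEE+MPA, with 1198, 1031, 1273 and 1375 against 286, 189.8, 436 and 701 in controls, a difference of 1.71 ± 0.33 (adjusted p = 0.0107 in limma). That was 1 of 9, where 2.74% of all tested genes were called higher. STAT5A under CEE alone was at 865, 1146, 1196 and 1199.8, close to the CEE+MPA values. In tibolone minus CEE+MPA 2 of the 9 were called lower, STAT5A at -1.24 ± 0.33 and ELF5 at -1.31 ± 0.33, where 3.37% of all tested genes were called lower. ELF5, a factor of milk-secreting cells, was named after its values were seen.

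The partners of PER1 in the circadian clock, 11 of 19 tested, had no call in any of the 6 comparisons. The smallest p in CEE+MPA minus CEE belonged to CLOCK, with 44.1, 45.5, 43.8 and 45.0 under CEE+MPA and 194, 274, 34.7 and 198 under CEE. The 3 highest CEE animals were far above all others, and the difference of -1.40 ± 0.38 was not called (adjusted p = 0.323 in limma). Without CEE replicate 3 it was -1.96 and was called, at an adjusted p of 0.000328. CLOCK was above 60.2 on those 3 CEE arrays and tibolone replicate 2 only, so it entered the test through the group where it was high, and that refit left out the 1 low CEE array. Neither value supports a difference. BHLHE40 and PER2 followed at -0.65 ± 0.36 and -0.28 ± 0.20. Of the immediate early and stress genes 13 of 21 were tested, and none was called in CEE+MPA minus CEE. MYC rose under CEE+MPA, with 1523 ± 335 against 773 ± 273 in controls (SD, n = 4 each, adjusted p = 0.0422 in limma). That was 1 of 13, where 2.74% of all tested genes were called higher. MYC under CEE alone was at 1103 ± 302, and CEE+MPA minus CEE was 0.47 (adjusted p = 0.710 in limma). JUND, named after its values were seen, was higher under tibolone than under CEE+MPA by 1.16 ± 0.25 (adjusted p = 0.0217). That was 1 of 13, where 3.98% of all tested genes were called higher.

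Several of these calls were also lost when single arrays were left out. In CEE+MPA minus control, TFPI lost its call without any 1 of the 8 arrays, CRISPLD2 without 1 of the arrays CEE+MPA 2 and 3 and control 1, 2 and 3, and MYC without 1 of the arrays CEE+MPA 1, 2 and 3 and control 2, 3 and 4. In the refits that ended these calls the values were -1.10 to -0.97, adjusted p of 0.0648 to 0.12, for TFPI, -0.84 to -0.75, adjusted p of 0.0505 to 0.0836, for CRISPLD2, and 0.81 to 1.07, adjusted p of 0.0535 to 0.147, for MYC. FKBP4 and STAT5A kept their calls in that comparison with any 1 array left out. In tibolone minus CEE+MPA, STAT5A lost its call without any 1 array except tibolone replicate 4 (-1.31 to -1.09, adjusted p of 0.0607 to 0.114). ELF5 lost it without any 1 CEE+MPA array or tibolone replicate 2 or 3 (adjusted p of 0.0608 to 0.112). Leaving out tibolone replicate 2 or 3 also ended the calls of FKBP4, CRISPLD2 and JUND, as did CEE+MPA replicate 1 for FKBP4 and JUND and CEE+MPA replicate 3 for FKBP4 and CRISPLD2. The values in those refits were -0.69 to -0.57, adjusted p of 0.0555 to 0.0761, for FKBP4, 0.76 to 0.89, adjusted p of 0.0518 to 0.0769, for CRISPLD2, and 1.02 to 1.15, adjusted p of 0.0519 to 0.0769, for JUND. The brightest NR3C1 probe set was called lower under tibolone without tibolone replicate 4 (-0.76), as 1 of 3333 probe sets called in that refit.

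**Figure D4:**
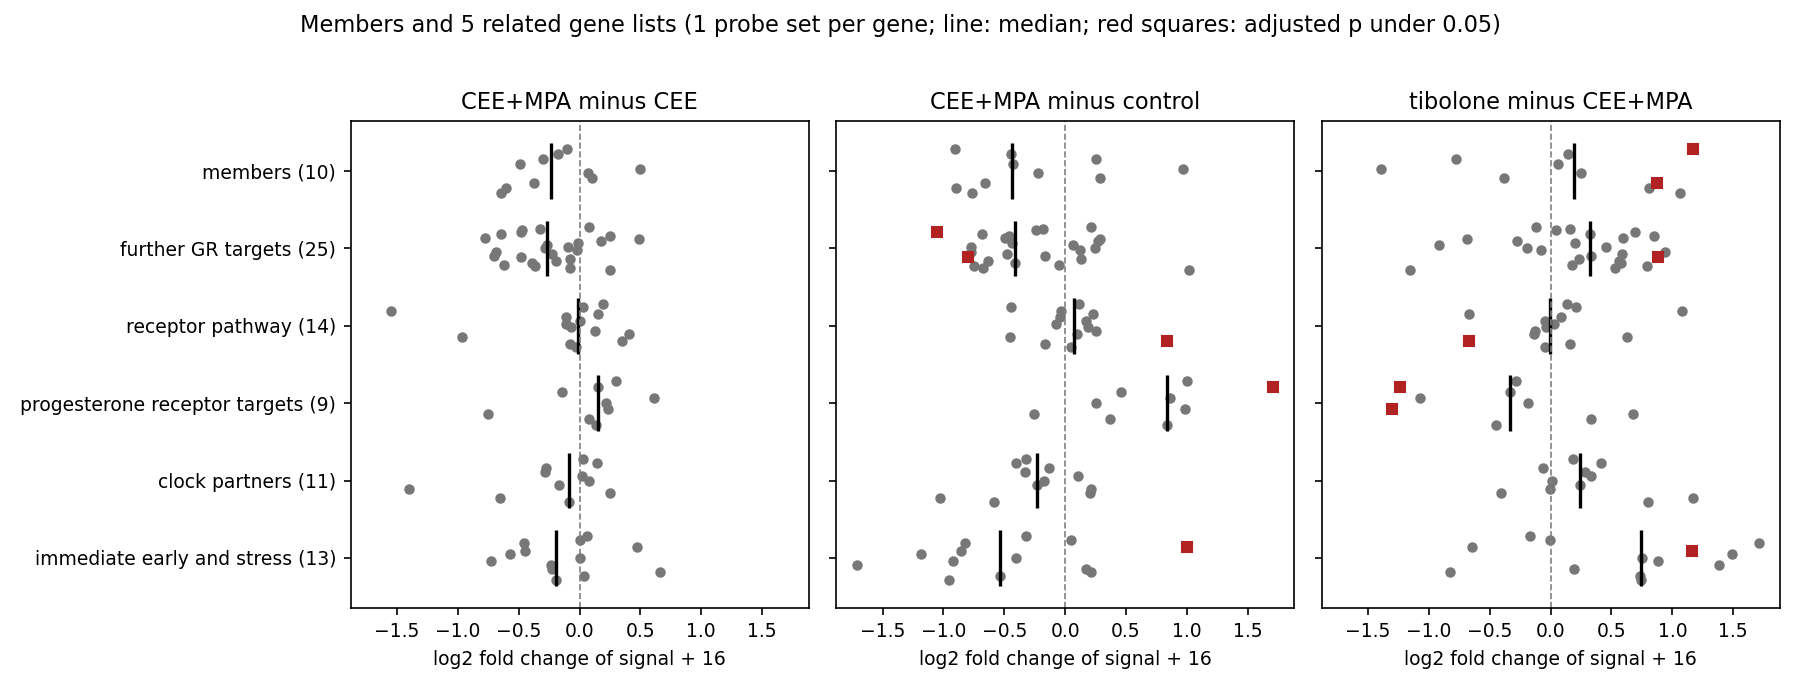
Log2 fold change of signal + 16 (horizontal axis) for the 10 targets and the tested genes of 5 related lists in 3 comparisons, 1 point per gene, with a line at the median and red squares at adjusted p under 0.05. No list has a red square in CEE+MPA minus CEE, and the medians of the 10 targets and of the 25 further targets there are -0.24 and -0.27.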

How the data were processed

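Per the labels, biotin-labelled RNA of each animal went onto 1 Affymetrix array designed for the rhesus macaque. The deposited values are linear intensity (signal) per probe set, and on every array the mean after trimming 2% at each end is 250.01 or 250.02. The submitters' processing notes name GCOS and Affymetrix Expression Console, and the signal algorithm is not given in the sources used here. The rhesus probes were used on another macaque species, whose mismatches could lower signals, and all 10 symbols are in the cynomolgus gene table. The precision is set by the number of arrays, 4 a group.

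Control probe sets (99) were left out. Of the 52865 probe sets, 24969 have 1 symbol, 361 several and 27535 none. Tests covered probe sets with a signal above 60.2, the median over probe sets other than controls, on at least 4 of 16 arrays. One limma model of 4 group means was fitted to log2(signal + 16), so changes of dim genes are understated. It gave 6 comparisons, adjusted by Benjamini and Hochberg over 28716 probe sets. For lists, 1 probe set per gene was used, with the highest mean. The members and lists were chosen with earlier results of these data known. Related genes were named if called in CEE+MPA minus CEE or CEE+MPA minus control, otherwise the 3 of smallest p in CEE+MPA minus CEE, plus FKBP5, NR3C1, PGR and HSD11B1. Correlations between members used all 331776 orders of arrays within groups. Spike-in sets were divided at a dap signal of 7.5 on the log2 scale.

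Alternatives were quantile normalization, median centring, no filter, the 75th percentile as filter, array weights, offsets of 1 and 64, a prior with a trend, only the groups compared, muscle and adipocyte covariates, the spike-in block, 1 probe set per gene, a threshold of 0.10 and leaving out arrays. The fit was tested on simulated data. Fits ran in limma 3.58.1 under R 4.3.3, and correlations and plots in Python 3.11.15 with numpy 2.4.6 and matplotlib 3.10.9.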

Additional observations from a re-analysis of the deposited data

Results flagged for a closer look

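Of 64 groups of 4 values, 1 group for each tested probe set of a target and treatment, 2 held an animal far from the other 3 by Dixon's criterion at 95%, which chance meets in about 1 in 20 groups. KLF15 was at 989 on CEE replicate 4, with the other CEE animals at 489.5 to 537. MAOA was at 552 on CEE+MPA replicate 2, with the other CEE+MPA animals at 1109 to 1187. CEE replicate 4 also had the highest mean over the 10 targets, 0.57, and CEE+MPA replicate 2 the second lowest, -0.63.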

How the results depend on the processing

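Across 22 alternative settings per comparison, 2058 refits of the 16 member probe sets in 6 comparisons gave 2022 with the same side of the threshold, 27 in which a call was lost, 9 in which one was gained and 0 in which a called difference changed sign. All 27 losses were ZBTB16 or GLUL in tibolone minus CEE+MPA. In CEE+MPA minus CEE, 0 of 343 refits called a member, with a lowest adjusted p of 0.428. In that comparison 18 uncalled refits changed sign.

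The count of members called in tibolone minus CEE+MPA was 2. It was 1 with quantile normalization, with an offset of 1 and with the adipocyte covariate. It was 0 with median centring, with no filter (52766 probe sets tested), with only the 2 groups compared, with the skeletal muscle covariate, with the spike-in block and without the 4 arrays of high muscle signal. It was 3, with CEBPD added, with the 75th percentile filter, the trended prior, array weights and 1 probe set per gene (adjusted p of 0.0293 to 0.0482), and at a threshold of 0.10. Leaving out single arrays gave 0 to 5. The 5, without tibolone replicate 4, were CEBPD, ZBTB16, DUSP1 and 2 of GLUL, where 3333 of all 28716 tested probe sets were called. In CEE+MPA minus control the count was 1 at an adjusted p under 0.10 and 1 with array weights (GLUL, -0.70, adjusted p = 0.0374), where 3729 of all probe sets were called. In tibolone minus CEE it was 1 without tibolone replicate 4, where 238 of all probe sets were called. Leaving out single arrays gave 0 to 1 in that comparison.

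Over all probe sets the calls ranged between 3 and 14 in CEE+MPA minus CEE (6 as reported), 348 and 3729 in CEE+MPA minus control (1819), 6 and 140 in CEE minus control (21), 0 and 12 in tibolone minus control (7), 0 and 238 in tibolone minus CEE (2) and 0 and 3333 in tibolone minus CEE+MPA (1820). Against controls, FKBP4 kept its call under CEE+MPA in 22 of 22 settings, STAT5A in 21, CRISPLD2 in 15, MYC in 11 and TFPI in 8. The causes were not tested. No paired analysis was possible because replicate numbers follow the order of deposit and no animal had more than 1 treatment. With 4 animals a group, intervals for PER1, SGK1 and PDK4 spanned more than 2 log2 units in every comparison.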
